A study of Drosophila melanogaster with 2 samples.

Results

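Cohesin is a ring-shaped protein complex that holds sister chromatids together and folds chromosomes into loops. The genes described here are 8 protein-coding genes of the fly complex and its handlers, of 13968 protein-coding genes on the chromosome arms. They fall into 3 roles. SMC1 and SMC3 are the long coiled-coil ATPases of the ring, vtd (also called Rad21) is the kleisin that closes it, and SA1 is the subunit docked on the kleisin. Nipped-B and Mau2 form the loader that puts cohesin on DNA, and wapl and pds5 act in its release and maintenance. In flies, lower Nipped-B or cohesin dosage is known to change the expression of developmental genes. The genes were chosen by name, with results of these data known, among them the high peak signal at SMC1. Counts and signals at these genes are therefore descriptions and carry no test.

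The data came from chromatin immunoprecipitation followed by sequencing of whole embryos of Drosophila melanogaster aged 0 to 18 h. The flies carried a transgene for homeobrain (hbn) fused to eGFP, and chromatin sonicated to 200 to 800 bp was precipitated with an antibody to GFP; the control experiment was not analysed here. The tagged protein is a homeodomain transcription factor, a class whose members often recognise TAAT cores. There is 1 group of 2 biological replicates, so no condition is compared, and embryos of all these ages and all their cells were mixed. Every value below is a property of a peak: its summit, its rank within a file and its signal, an enrichment value on a scale that the files do not define. Read depth is unknown from the files used here, so the replicates' signals are given separately and no mean or SD was taken over them. The conservative signal is the authors' own value from both replicates together, and ratios between replicates are read only against the median ratio of all promoter summits. The set from both replicates that the authors named conservative held 3595 peaks, the pooled set 3735 (also from both), replicate 1's own set 3288 and replicate 2's own set 2189.

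Promoter sequences of 4 genes are shown because they carry the patterns described below, together with a short site from vtd, which had no summit in any peak set. Each is from the RefSeq copy of dm6, read 5′ to 3′ on the gene's strand, with distances counted from the annotated start as 0 and negative upstream. Capitals mark TATCGA in either direction, the core of the site of the promoter factor DREF (a palindromic full site reads TATCGATA), GGTCACAC (known as motif 1) and TAATTA, a homeodomain core. The first 4 hold no annotated exon. SMC1 covers chr3R:24058167-24058286 on the plus strand, 120 bases. SMC3 covers chrX:16593440-16593676 on the minus strand, the whole gap of 237 bases to the divergent gene Ubc7. SA1 covers chr2L:6950208-6950420 on the plus strand, the whole gap of 213 bases to the divergent gene Gas41. The wapl stretch covers chrX:2158984-2159144 on the minus strand, 161 bases. The vtd site covers chr3L:27136505-27136533 on the plus strand, from -20 to 8.
SMC1: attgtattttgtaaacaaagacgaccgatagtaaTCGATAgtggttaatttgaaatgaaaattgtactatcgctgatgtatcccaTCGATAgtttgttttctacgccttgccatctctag
SMC3: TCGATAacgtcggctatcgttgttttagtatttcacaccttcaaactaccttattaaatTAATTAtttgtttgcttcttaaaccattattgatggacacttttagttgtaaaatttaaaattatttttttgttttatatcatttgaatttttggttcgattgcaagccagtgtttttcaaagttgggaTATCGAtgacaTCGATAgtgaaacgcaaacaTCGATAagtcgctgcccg
SA1: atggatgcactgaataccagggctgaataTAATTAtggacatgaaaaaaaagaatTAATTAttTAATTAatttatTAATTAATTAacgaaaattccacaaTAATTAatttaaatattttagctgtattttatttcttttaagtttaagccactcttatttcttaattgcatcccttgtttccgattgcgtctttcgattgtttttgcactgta
wapl: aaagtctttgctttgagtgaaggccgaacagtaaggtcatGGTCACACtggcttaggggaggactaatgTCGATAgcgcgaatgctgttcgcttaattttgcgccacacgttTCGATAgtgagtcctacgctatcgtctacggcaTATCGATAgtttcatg
vtd: ttatcttgacattttaaatgaTATCGATA

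Of the 8 genes, 6 had a summit within 500 bp of an own start in the conservative set: SMC1, SMC3 and SA1 of the ring, Mau2 of the loader, and wapl and pds5. Among all protein-coding genes the share was 26.5%. The count was 6 in the pooled set (26.6% of all genes) and in replicate 1's own set (24.5%), and 5 in replicate 2's own set (17.6%), which lacked SA1. The kleisin vtd and the loader Nipped-B had no such summit in any of the 4 sets. Counted over the gene and 5 kb to either side, 6 genes had a summit in the conservative set, against 50.1% of all genes, and 6 in the pooled set, also against 50.1%. Replicate 1's own set gave 7 (47.3% of all genes), the seventh being Nipped-B, and replicate 2's own set 6 (37.6%). The 500 bp limit was far from any of these values: the most distant own-promoter summit, at pds5, was 166 bp away, and the nearest conservative summit outside was 922 bp from the SMC1 start.

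All 6 promoter summits had a signal above the median of the 2642 distinct promoter summits of coding genes in the conservative set, which was 148. Their own median was 326. SMC1 was highest at 709.6, rank 15 of 3595, followed by pds5 at 581 (rank 39), wapl at 347 (rank 283) and SMC3 at 305 (rank 424). SA1 (rank 1159) and Mau2 (rank 1160) were neighbours in rank, each at 174. The 6 therefore fell into an upper group of 4, above the upper quartile of 246, and a pair just above the median. Of the 6 peaks, 5 were narrower than the width of 460 bp that 62.3% of promoter peaks share, and SA1 had exactly that width; 37.2% of all promoter peaks were narrower.

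**Figure D1:**
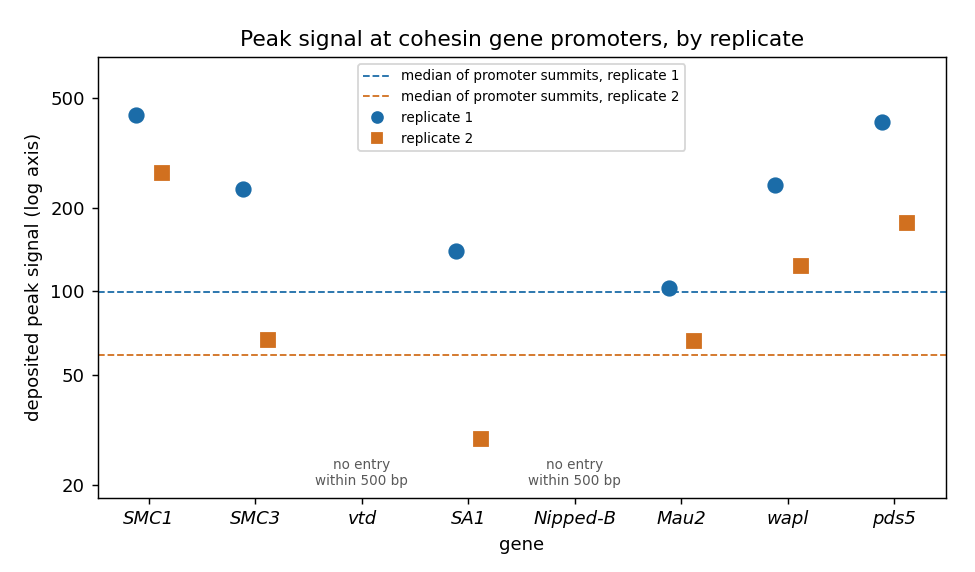
Deposited peak signal (log axis) at the own-promoter summit of each cohesin gene, from the ranked list of replicate 1 (circles) and of replicate 2 (squares), with the median over promoter summits in each replicate dashed. SMC1 and pds5 were highest in both replicates, SA1 was above the median in replicate 1 and below it in replicate 2, and vtd and Nipped-B had no entry within 500 bp of their starts.

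SMC1 (FBgn0040283, 3R from 24058287 to 24062815, plus strand) had the strongest peak of the group in both replicates. Its signal was 434 in replicate 1 and 268 in replicate 2, against medians of 99.5 and 59.1 over promoter summits in the same replicates. In each replicate's own set it ranked 32 of 3288 and 12 of 2189. The peak covered 24058067 to 24058411, and its summit was 56 bp upstream of the start in the conservative set, 57 bp in replicate 1 and 47 bp in replicate 2, in intergenic sequence. The summit lay between the 2 TATCGA matches of the sequence above, which cover -86 to -81 and -35 to -30. SMC1 stood nearly alone at this summit: the closest other coding start, of the heat shock gene Hsp68 on the opposite strand, was 921 bp away and had a weaker summit of its own (signal 77.1, 55 bp upstream of the Hsp68 start).

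SMC3 (FBgn0015615, X from 16588996 to 16593439, minus strand) shared its summit with Ubc7, a ubiquitin-conjugating enzyme gene whose start lies 238 bp away on the other strand. The signal was 235 in replicate 1 (rank 245 in its own set) and 66.9 in replicate 2 (rank 1101). SMC3 was thus well above the promoter median in replicate 1 and only just above it in replicate 2. The conservative peak covered 16593429 to 16593694, and its summit was 149 bp upstream of the SMC3 start and 89 bp upstream of the Ubc7 start. In replicate 1 the summit was 154 bp and in replicate 2 187 bp from the SMC3 start, so every one of them lay nearer to Ubc7. The TATCGA matches sat at the ends of the gap. One match abuts the Ubc7 start (-237 to -232), and 3 matches lie between -49 and -13 near the SMC3 start; the middle holds a TAATTA from -178 to -173.

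SA1 (FBgn0020616, 2L from 6950421 to 6954586, plus strand) also shared its summit, with Gas41, whose product belongs to chromatin-modifying complexes and whose start lies 214 bp away on the other strand. The 2 replicates differed most at this gene. The signal was 140.3 in replicate 1 (rank 836 in its own set) and 29.4 in replicate 2, where the entry ranked 4464 of 69405 in the ranked list and did not enter the thresholded set. Its irreproducible discovery rate (IDR, low where peak ranks repeat between lists) was 4.28e-05 in replicate 1's list, 0.791 in replicate 2's list and 0.00383 in the list of both, the highest of the 6 genes in that list. The conservative peak covered 6950090 to 6950549, and its summit was 101 bp upstream of the SA1 start and 113 bp upstream of that of Gas41. No TATCGA lay within 100 bp. The nearest, a TATCGATA from -222 to -215, overlaps the first bases of Gas41.

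Of the loader, only Mau2 (FBgn0038300, 3R from 15209204 to 15211347, plus strand) had a promoter summit. The signal was 103 in replicate 1 (rank 1284 in its own set) and 66.3 in replicate 2 (rank 1118), each just above the promoter median of that replicate. The conservative peak was narrow, from 15209074 to 15209209. Its summit lay 2 bp downstream of the start, in the 5′ UTR; it was 65 bp upstream in replicate 1 and 5 bp downstream in replicate 2. The start of Spn88Eb, a serpin gene on the other strand, was 444 bp away. No TATCGA lay within 100 bp of the summit, and the shorter CGATA occurred at -41 to -37 and at 60 to 64.

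Both genes of release and maintenance had strong promoter peaks. At wapl (FBgn0004655, X from 2149936 to 2158983, minus strand) the signal was 242 in replicate 1 (rank 232 in its own set) and 123 in replicate 2 (rank 327). The summit was 35 bp upstream of the upstream one of its 2 starts in the conservative set, 59 bp in replicate 1 and 29 bp in replicate 2. No other coding start lay within 1000 bp. This promoter was the only one of the 6 with the full TATCGATA within 100 bp of its summit, at -16 to -9, and the only one with GGTCACAC, at -121 to -114. At pds5 (FBgn0260012, 2R from 12027985 to 12033725, plus strand) the signal was 409.8 in replicate 1 (rank 38) and 177 in replicate 2 (rank 95). The pds5 summit was 166 bp upstream of its start in the conservative set (145 and 192 bp in the replicates) and 112 bp upstream of the divergent gene Mppe, 278 bp away. No TATCGA or CGATA lay within 100 bp of it.

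**Figure D2:**
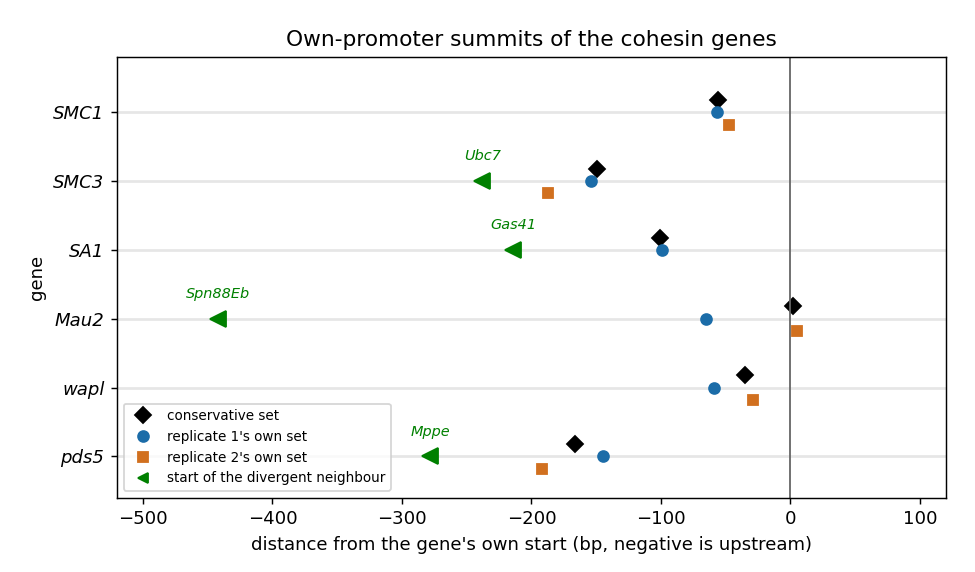
Position of the own-promoter summit of each of the 6 genes with one, in bp from the gene's own start (0, with upstream negative), in the conservative set (diamonds) and in each replicate's own set (circles and squares); triangles mark the start of a divergent gene within 500 bp of the summit. SMC1 and wapl have no such neighbour, and only at Mau2 did summits fall on both sides of the start.

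Taken over the group, 5 of 6 conservative summits lay upstream of the start, from 35 to 166 bp; over all genes with an own-promoter summit the share upstream was 82.0% and the median distance -60 bp. A divergent coding start lay within 500 bp of 4 of the 6 summits (SMC3, SA1, Mau2 and pds5), and 56.5% of all 3696 genes with an own-promoter summit had another coding start that close. Within 250 bp it was 3 (SMC3, SA1 and pds5), and there a peak cannot be assigned to one gene of the pair. The share of all genes at 250 bp was not taken. The Mau2 summit lay 2 bp from its own start and 444 bp from that of Spn88Eb.

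The 6 promoters held different motifs. TATCGA lay within 100 bp of 3 summits (SMC1, SMC3 and wapl) and of 59.2% of the 2642 promoter summits. TATCGATA lay at 1 (wapl), against 27.2%, and CGATA, which both contain, at 4 (also Mau2), against 74.5%. The wapl window held 4 TATCGA matches, of which 2 overlap within the palindrome TATCGATA. Of promoter summits 4.62% held exactly 4, and 18.3% held 3 or more. TAATTA was present at SMC3 and SA1, against 12.1% of promoter summits, and TAATTG at SA1, against 16.2%. CAGCTG, a form of the E-box, was at 0 of 6 (18.7%), GATAAG at 0 (15.5%) and GAGAG at 2, wapl and pds5 (22.0%). Each motif was sought on both strands.

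Over the 300 bases from 250 before the upstream start to 50 after it, TATCGA occurred in 6 of the 8 genes and in 27.7% of 13968 coding promoters. The 2 without it were Mau2 and pds5. TATCGATA occurred in 3 (vtd, SA1 and wapl) against 9.36%, CGATA in all but pds5 (47.3%), GGTCACAC in wapl (7.69%), TAATTA in 2 (20.4%), TAATTG in 2 (25.2%), CAGCTG in 1 (17.6%), GATAAG in 1 (18.9%) and GAGAG in 3 (29.7%). Both genes without a promoter summit were among the 6 with TATCGA: vtd had a TATCGATA at bases 1 to 8 after its start, shown above, and Nipped-B a TATCGA from -222 to -217. The peak of replicate 1's own set that lay 1349 bp upstream of Nipped-B held 3 TATCGA matches within 100 bp of its summit and 1 TATCGATA, whose letters make 2 of the 3 matches. A match is only a run of letters, and no factor's binding to it was measured here.

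The SA1 promoter was the one most crowded with TAATTA. The window of 201 bases around its summit held 6 matches, from -184 to -108, and the summit lay 9.50 bp from the centre of the nearest. Of 2430 promoter summits with an entry within 100 bp in both replicates' ranked lists, 2 held 3 or more matches, and 1, that of SA1, held 6. The SA1 window had a GC content of 23.9%, and 0.782% of promoter summits had as little; SMC3 followed with 27.9%. The other windows had 33.8% at SMC1, 36.8% at pds5, 43.3% at wapl and 48.3% at Mau2, around a promoter median of 39.3%.

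SA1 and SMC3 also differed most between the replicates. A log2 ratio of the signal in replicate 1 to that in replicate 2 needs an entry in both ranked lists. It could be taken at 2430 of the 2642 promoter summits, and a summit missing from either list is not ranked here. The ratio had a median of 0.71, with quartiles of 0.43 and 0.98. It was 2.26 at SA1, a value exceeded at 2 of the 2430 summits, and 1.81 at SMC3, exceeded at 8. The other 4 genes were closer to the median, with 0.63 at Mau2, 0.69 at SMC1, 0.98 at wapl and 1.21 at pds5. Base composition moved with this ratio across promoters. Its median was 0.81 in the fifth of summits with the lowest GC content and 0.54 in the fifth with the highest, and Spearman's rho between GC content and log2 ratio was -0.24 across 2430 summits, which share the same libraries. Among the 83 summits with a GC content at or below 28% the median was 0.93, with an upper quartile of 1.18. Summits with TAATTA had a median ratio of 0.72 and those without it 0.71, with median GC contents of 34.3% and 39.8%. Within the fifth of lowest GC content the medians were 0.72 with TAATTA (125 summits) and 0.83 without it (387 summits). Summits with TATCGA had a median ratio of 0.76 (1501 summits) and those without it 0.60 (929 summits). Their median GC contents were 37.3% and 43.3%. Whether composition, TAATTA or TATCGA accounts for the SA1 and SMC3 ratios was not tested. These summits were looked at in this way after the values of the 2 genes had been seen.

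**Figure D3:**
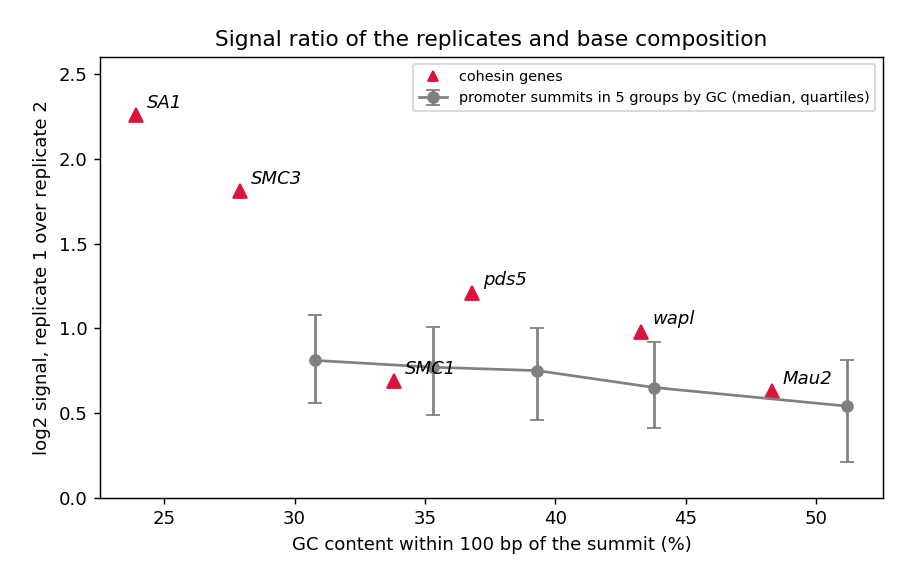
Log2 signal ratio of replicate 1 to replicate 2 against GC content within 100 bp of the summit, for the 6 cohesin genes with a promoter summit (triangles) and for 2430 promoter summits in 5 groups by GC content (points are medians, bars quartiles). SA1 (2.26), SMC3 (1.81) and pds5 (1.21) lie above the quartiles of every group, while SMC1 (0.69) and Mau2 (0.63) lie among them.

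The 2 genes without a promoter summit lie in gene-poor pericentromeric parts of their arms. The kleisin gene vtd (FBgn0260987, 3L from 27136525 to 27157999, plus strand) starts 27.1 Mb into an arm of 28.1 Mb. The ranked list of both replicates, which holds 107925 entries of any strength, had no entry in vtd or within 5 kb, and the nearest entry was 22076 bp from its start. Replicate 1's list had none there either, and replicate 2's list had 1, with a signal of 12.4, rank 35925 of 69405 and an IDR of 0.890, 602 bp from the start. The loader gene Nipped-B (FBgn0026401, 2R from 4691672 to 4729017, minus strand) had no entry in the list of both, 1 in replicate 1 and 6 in replicate 2, of which the strongest had a signal of 18.6. The replicate 1 entry, 1349 bp upstream of the start with a signal of 52.5 (rank 2568 in its own set) and an IDR of 0.00715, passed that replicate's threshold.

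Few coding genes had so empty a stretch. Of all coding genes 76.8% had an entry within 500 bp of a start in the ranked list of both replicates, and 5.72% had none in the gene or within 5 kb. The other 6 genes had from 0.964 to 1.73 entries per kb in that list, against a median of 1.16 over coding genes. Few genes near vtd and Nipped-B had promoter summits: within 1 Mb, 0 of 8 other coding genes around vtd and 2 of 44 around Nipped-B (4.55%) had an own-promoter summit, against 22.6% to 34.3% around the other 6 genes. The 2 genes also had larger shares of repeats in and around them than the other 6. Soft-masked bases, which mark repeats in the RefSeq sequence, made up 37.8% of vtd and its 5 kb flanks and 29.2% of Nipped-B and its flanks, against a median of 12.2% over coding genes and 6.64% to 16.2% at the other 6. Within 500 bp of the start the share was 25.3% at SMC1, 25.0% at vtd and 24.2% at Nipped-B. The part of repeats in the missing peaks was not tested.

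**Figure D4:**
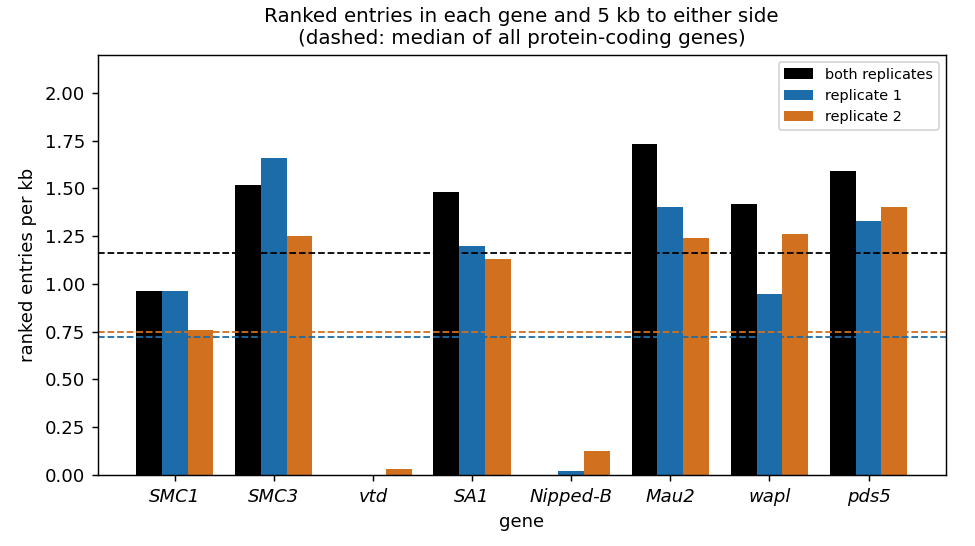
Entries of any strength per kb in each cohesin gene and 5 kb to either side, in the ranked list of both replicates (black), replicate 1 (blue) and replicate 2 (orange), with the median of all coding genes dashed in the same colours. The bars of vtd and Nipped-B are at or near 0, and in the list of both replicates only SMC1 of the other genes (0.964) lies below the median of 1.16.

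Most summits near these genes lay closest to the start of another gene. The share over all coding genes was not taken, so this describes only these loci. The 6 genes had 19 conservative summits in them or within 5 kb, of which 4 had the member's own start as the nearest coding start and 15 another gene's, among them the shared summits of SMC3 and pds5; 18 lay within 500 bp of some coding start. The exception was a summit 771 bp into Pgd, a gene of the pentose phosphate pathway downstream of wapl. The strongest summit outside the 6 own promoters, with a signal of 420.5, lay 217 bp beyond the 3′ end of wapl and 72 bp upstream of bcn92; it exceeded wapl's own (347), as it did in replicate 1 (256 against 242) and replicate 2 (151 against 123). Likewise a summit with a signal of 300.0 lay 244 bp beyond the 3′ end of pds5, 23 bp into CG8321. SMC3 was followed by a summit 47 bp upstream of CanA-14F (signal 122), SA1 by one 16 bp upstream of CG3430 (161) and Mau2 by one 10 bp into CG6654 (96.6). With 5 conservative summits pds5 had the most of the 8, a number reached by 1.23% of coding genes. They included overlapping peaks beside the CG8321 start, with signals of 300.0 and 56.7. In each replicate's own set pds5 and wapl had 4 each, and in the pooled set 6 and 5. Inside gene bodies alone, 1 of the 8 had a conservative summit, against 10.7% of all coding genes, a share near that of the members. It was the promoter summit of Mau2, 2 bp inside the gene.

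Genes with like signals in both replicates were found by the distance between the pairs of log2 signals over 3407 genes with a promoter summit and both values. Nearest to SMC1 were CG2924 (478 and 266) and CG5916 (417 and 240.5). Nearest to pds5 were CalpA and hts, which share a summit (434 and 176), and nearest to wapl were Hmu and bigmax, also at a shared summit (248 and 121). SMC3 was closest to Rpe (208 and 71.1) and rux (246 and 76.6), SA1 to HUWE1 (146 and 31.7) and CG11811 (131 and 26.7), and Mau2 to CG1637 (103 and 65.6) and Idh (103 and 65.5). With 2 values a gene, likeness here means no more than a similar signal.

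Other genes of sister chromatid cohesion and of the related complexes gave uneven counts. Among 9 cohesion regulators, 6 had an own-promoter summit in the conservative set (Sse, pim, thr, mei-S332, polo and BubR1), and the acetyltransferase genes eco and san and the protector dmt had none. The 2 strongest were BubR1, a spindle checkpoint kinase (conservative signal 289.9, replicate 1 signal 176, replicate 2 signal 95.2), and polo, a mitotic kinase (279, 188 and 92.4). Separase itself, Sse, which cleaves the kleisin, had 174 (115 and 59.6). Of 7 condensin genes 2 had one: Cap-H2 at 548 (340.4 and 206), shared with MED7, and Cap-D2 at 275 (195 and 82.1), shared with Bub3. The condensin ATPase genes SMC2 and glu, the counterparts of SMC1 and SMC3, had none. Of 6 genes of the SMC5/6 complex 3 had one (SMC6, cerv and Nse4, the last 2 at 173 and 174), and of 5 cohesin-related genes of the germline (SA2, solo, sunn, ord and c(2)M) 0 had one. The summits of pim, mei-S332, SMC6 and cerv also had another coding start within 500 bp. All of these counts stand beside the same 26.5% of all coding genes, and they differed by at most 1 gene with the set used. Condensin had 3 in the pooled set and in replicate 1's own set. SMC5/6 had 2 in the pooled set and in replicate 2's own set, and cohesion regulators 5 in each replicate's own set. All coding genes gave 26.6% in the pooled set, 24.5% in replicate 1's and 17.6% in replicate 2's.

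**Figure D5:**
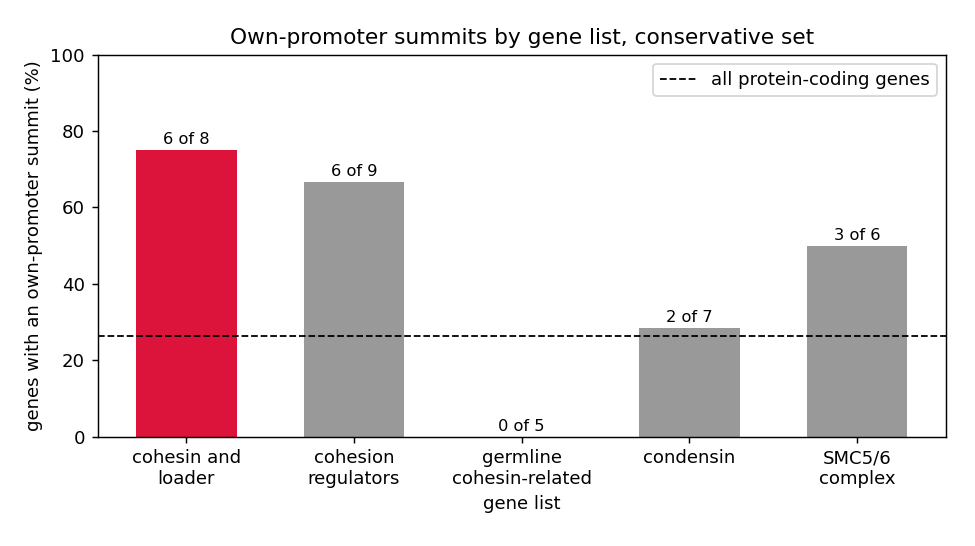
Share of genes with a conservative summit within 500 bp of an own start (bars from 0, with counts above them) in the cohesin and loader genes and in 4 related lists, with the share of all protein-coding genes (26.5%) dashed. Cohesin and loader genes (6 of 8), cohesion regulators (6 of 9) and SMC5/6 (3 of 6) lie above the dashed line, condensin (2 of 7) close to it, and the germline list at 0 of 5.

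The tagged gene hbn had an own-promoter summit in the pooled set and in replicate 1's own set, but not in the other two.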

How the data were processed

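The authors derived the peaks from dm6 alignments and 1 control file, per the deposited README files; for peak caller and aligner, names and versions were not given in the sources used here. The signal deposited with each peak is an enrichment value. The deposited −log10 of the global IDR was read from the ranked lists. Replicate signals came from each replicate's own ranked list, as its strongest entry within 100 bp of the conservative summit. Depth is unknown, so no counting error could be given.

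Gene models were Ensembl release 115 for BDGP6, without transposable elements, and sequence the RefSeq copy of Release 6; no peak ended beyond a chromosome of that sequence. Coordinates are 1-based. For each gene the strongest summit no more than 500 bp from one of its transcript starts was taken. The members and gene lists were chosen with earlier results of these data known. Named genes are the members, genes with starts near their summits, the 2 most like genes by signal, the strongest 2 of each list, and hbn; genes nearest other summits, the remaining list members with or without a summit, and Sse were named after their values were seen. Alternatives were other peak sets, thresholds and windows. The counting steps were tested on simulated data and gave back what was planted. Python 3.11.15, numpy 2.4.6, pandas 2.3.3 and matplotlib 3.10.9 were used.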

Additional observations from a re-analysis of the deposited data

How the results depend on the processing

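Of 32 alternatives to the 5 counts over the 8 genes, 30 stayed within 1.5 times the value reported and 2 did not. In gene bodies alone 1 gene (Mau2, at its promoter) had a summit, instead of 6 within 5 kb; of all coding genes 10.7% had one in the gene body and 50.1% within 5 kb. Within 200 bp of the summit TATCGATA was at 2 genes (SA1 and wapl) instead of 1, since the wider window takes in the site at the edge of Gas41. The limit of 1.5 times cannot flag a change of 1 gene in a count of 3 or more. Such changes included TATCGA at 2 genes within 50 bp of the summit (without SMC3) and at 4 within 200 bp (with SA1). Shared summits numbered 3 within 250 bp (without Mau2) and 5 within 1000 bp (with SMC1). With each replicate's set alone, 5 to 6 genes had an own-promoter summit, 6 to 7 a summit within 5 kb, 3 to 3 TATCGA, 1 to 1 TATCGATA and 3 to 4 a shared summit. SA1 was the gene lost in replicate 2's set and at an IDR of 0.001 or less, where 5 remained. That IDR limit kept 1950 conservative entries, and the share of all coding genes under it was not taken. Apart from gene bodies, no background share was taken for the altered windows, or by replicate for motifs and shared summits. The member counts under those settings therefore stand without a comparison. The Mau2 summit moved from 2 bp downstream of the start to 65 bp upstream in replicate 1. No paired analysis was possible because the series holds 1 group. Depth is unknown, so a missing summit was not detected in these files, and an absent peak cannot be told apart from an undetected one.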

Other observations

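Coding genes with at least as large a share of soft-masked bases as Nipped-B, in the gene and 5 kb to either side (29.2% or more), numbered 432 without vtd and Nipped-B. Of these, 51 (11.8%) had an own-promoter summit in the conservative set, beside 26.5% of all coding genes.

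The vtd start, with a full TATCGATA at its first bases, had its nearest ranked entry of both replicates 22076 bp away. Of the 2642 promoter summits, 719 held the same letters within 100 bp. The share of promoters with TATCGATA that had a summit was not taken. SMC3 held 5 TATCGA matches between -237 and 7. Its summits in the conservative set and in both replicates' own sets lay between the outer match beside Ubc7 and the 4 matches beside its own start. Whether the matches bear on the peaks was not tested.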
